A study of Homo sapiens with 36 samples.

Results

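SLIT2, LNPEP, POMK, SDE2, C5orf15 and TRUB1 are 6 human genes that stood out in the enhanced crosslinking and immunoprecipitation (eCLIP) list of CPSF5, by many windows in the gene or by a single very strong window in the 3' UTR. They were chosen by these measured values, so the number and strength of their CPSF5 windows are given as a description with no test. Together they held 253 of the 38826 windows listed for CPSF5, of which 177 lay in 3' UTRs, out of 30615 CPSF5 windows in 3' UTRs of 6081 genes. Over the lists of all 9 proteins the genes held 991 entries, which fall on 719 distinct windows. A further 15 entries under SLIT2 carried a second gene name as well and were left out.

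The study mapped binding of 9 RNA-binding or candidate RNA-binding proteins in HEK293T cells, an established human embryonic kidney line, with no treatment. For each protein there were 2 immunoprecipitated (IP) libraries and 2 libraries labelled as input, which gave 18 groups of 2 and 36 libraries. Precipitation used an antibody to the protein itself or to a V5 tag, and which of them served for each protein is not given in the sources used here. Nothing says that replicates came from separate cultures, so their spread may be technical.

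CPSF5, encoded by NUDT21, pairs with CPSF6 in cleavage factor Im, a complex that binds pre-mRNA upstream of poly(A) sites and steers the choice between proximal and distal ones. CPSF5 contacts RNA at UGUA elements, and CPSF6 carries an RS-like domain that recruits the cleavage machinery. Where a gene has several poly(A) sites, that choice sets the length of the 3' UTR. SLIT2 encodes a secreted ligand of ROBO receptors that repels growing axons. LNPEP encodes the insulin-regulated aminopeptidase, also called oxytocinase. POMK is the kinase that phosphorylates O-mannose on dystroglycan. SDE2 acts at the spliceosome and in the response to replication stress, C5orf15 encodes a transmembrane protein first described in keratinocytes, and TRUB1 is a pseudouridine synthase that modifies tRNA and mRNA.

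Each deposited window is a stretch of at most 100 nt that the authors listed as enriched in IP over input in both replicates. It comes with IP and input reads summed over the 2 replicates and with the authors' log2 odds ratio of IP over input for the replicate with the lower value and the one with the higher, here called the lower and higher log2 enrichment. Values per library were not used here, since the tables give none. Listed CPSF5 windows together held 2091353 IP and 305082 input reads, and the other lists between 187076 and 13313477 IP reads. The sources used here do not state the baseline of that ratio. The tables hold listed windows alone, so an unlisted window has no value. IP reads depend on how abundant a transcript is as well as on binding. Coordinates are 1-based in hg38.

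Read as a count of 3' UTR windows, the description of these genes as the 3' UTRs densest in CPSF5 windows held for LNPEP and POMK alone. By the share of positions that were listed, given below, no other 3' UTR compared exceeded SLIT2 (100%). By all windows of a gene SLIT2 ranked 1st with 72, but 56 of these lay outside the 3' UTR, and by 3' UTR windows alone it had 16 and ranked 199th. LNPEP had 58 windows, every one in the 3' UTR, and ranked 1st by 3' UTR windows. POMK had 45 there and 4 in coding sequence and ranked second. SDE2, TRUB1 and C5orf15 had 25, 20 and 13 windows in their 3' UTRs, which put them at ranks 39, 105 and 367. They were picked for their strongest window, and by that measure they ranked 1st, 3rd and second of all CPSF5 3' UTRs. SLIT2, POMK and LNPEP ranked 891st, 886th and 1118th by strongest window.

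Values just around these picks show no wide gap below TRUB1, nor below POMK by windows in the whole gene. By windows in the whole gene, CAPN15 had 56, SPEN and HOXC6 50 each, POMK 49 and NORAD 45, so 3 genes with more windows than POMK were passed over. Those 3 had only 4, 10 and 5 windows in the 3' UTR, and NORAD, a noncoding RNA, had 0. By 3' UTR windows a wider gap lay below POMK, which had 45, since the next, ETNK1 and SLC7A1, had 36 each. The strongest window of TRUB1 had a lower log2 enrichment of 7.96, against 7.94 for PREPL, 7.87 for SLC7A2 and 7.74 for PTPN13, the next in order.

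The 3' UTR of LNPEP spans 8981 nt and that of POMK 8303 nt up to the last listed window, so counts were next set against length. A 3' UTR of the authors' annotation is cut into windows of equal size, which are called positions here. SLIT2 had all 16 of its positions listed for CPSF5 (100%), SDE2 25 of 26 (96.2%), C5orf15 13 of 14 (92.9%), TRUB1 20 of 23 (87.0%), LNPEP 58 of 90 (64.4%) and POMK 45 of 84 (53.6%). The comparison took 2090 other 3' UTRs that held a CPSF5 window, had at least 10 positions and an end that could be rebuilt. POMK itself did not meet the last of these conditions. Its positions were counted up to its last listed window, so its share may be too high beside the others. Their median share was 25% (quartiles 12.5 and 42.9%), and 3' UTRs without a CPSF5 window did not enter. Among these, 15 were listed at every position, LBR with 19 positions and TLE4 with 18 among them. No other 3' UTR of similar length (a ratio of at most 5 to 4) to LNPEP (67 of them), to POMK (85) or to SDE2 (566) had a higher share, while 11 of 546 exceeded C5orf15 and 7 of 524 exceeded TRUB1. Over all 2090, whatever their length, 332 had a higher share than POMK and 186 than LNPEP. For TRUB1, C5orf15 and SDE2 these counts were 53, 20 and 15. The 6 genes therefore fall into a short and nearly filled group and a pair of long 3' UTRs with many windows and many unlisted positions. These shares contain the counts by which genes were picked, so they describe the choice and were not tested.

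**Figure D1:**
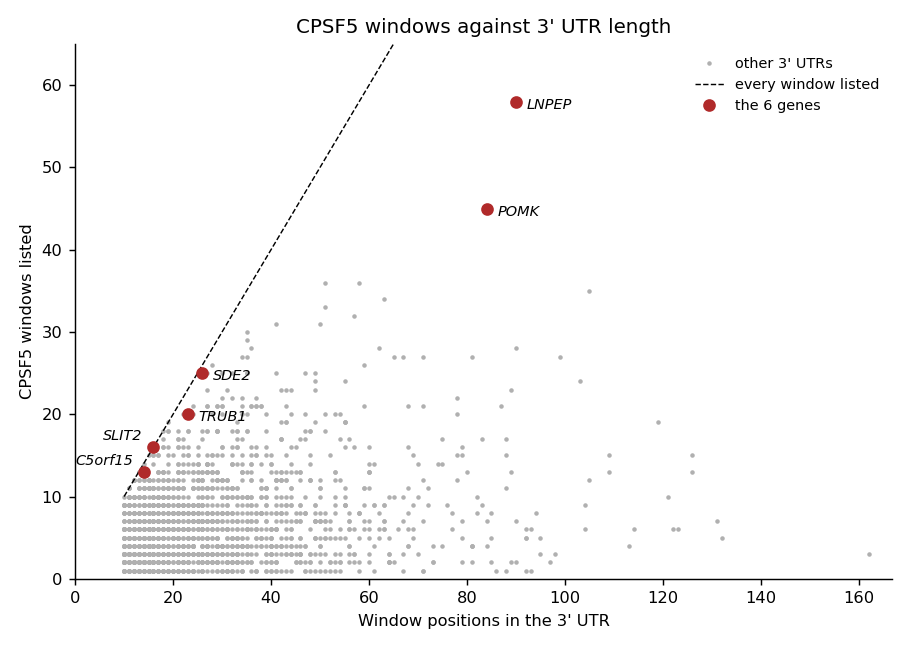
Number of CPSF5 windows listed (vertical axis) against the number of window positions in the 3' UTR (horizontal axis). The 6 genes are red and named, and 2090 other 3' UTRs with a CPSF5 window and at least 10 positions are gray. Positions of POMK were counted up to its last listed window. SLIT2, SDE2, C5orf15 and TRUB1 lie at or near the dashed line on which every position is listed, and LNPEP with 58 and POMK with 45 windows lie above the other long 3' UTRs.

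SDE2 had the most CPSF5 reads of the 6 genes. Its 3' UTR (chromosome 1, 225982702 to 225985301, minus strand) held 5880 IP and 168 input reads in listed windows, the fourth highest IP sum of any 3' UTR in the list after PLS3, HNRNPA2B1 and NUCKS1. IP reads per window ran from 25 to 628 with a median of 187. Reads rose to a pair of maxima. The first was centred 1750 nt from the end with 579 IP and 13 input reads and log2 enrichments of 5.48 and 5.67 in the lower and higher replicate. The second was centred 150 nt from the end with 628 IP and 5 input reads, and there the replicates lay far apart at 6.26 and 9.24. Just upstream of it the windows centred 250, 350 and 450 nt from the end held 513, 493 and 456 IP reads. The window at 350 nt had no input read and the highest lower log2 enrichment of any CPSF5 window in a 3' UTR, 9.04, with 9.07 in the higher replicate. An input count of 0 allows up to 3 reads, counting error alone, so that ratio rests on an input below what the depth could measure. The one unlisted position lay between the maxima, next to a window of 25 IP reads.

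C5orf15 carried its CPSF5 reads at both ends of the 3' UTR (chromosome 5, 133955510 to 133956858, minus strand). Read from the stop codon, the listed windows held 218, 374, 336, 158, 88, 50, 37, 97, 70, 262, 362, 145 and 170 IP reads, with an unlisted position after the sixth. Counts were thus high over the first 3 windows, at 218 to 374, and over the last 4, at 145 to 362. They fell to 37 in the middle, and the fourth window held 158, within the range of the last 4. The lower log2 enrichment followed the same course, from 8.05 in the first window and 2.00 to 2.84 in the middle to 6.26 in the last. The strongest window, with no input read, therefore lay at the upstream end, centred 1300.5 nt from the 3' UTR end and touching the stop codon window, which was itself listed with 103 IP reads and a lower log2 enrichment of 5.11.

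In TRUB1 the reads were concentrated at the distal end. The last 5 windows of its 3' UTR (chromosome 10, 114975380 to 114977676, plus strand) held 259, 236, 258, 212 and 127 IP reads, and each of the other 15 listed windows held between 14 and 72. These 5 windows carried 62.3% of the IP reads of the 3' UTR at 21.7% of its positions. Their lower log2 enrichments were 4.93, 7.96, 5.85, 4.93 and 7.06. Upstream of them, 3 adjoining positions were unlisted, and the windows on either side of these had lower log2 enrichments of 2.67 and 2.03.

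LNPEP showed another arrangement, with most reads in the interior. Its 3' UTR (chromosome 5, 97028533 to 97037513, plus strand) held 3200 IP and 227 input reads in 58 windows, which formed 10 runs of adjoining windows. The longest run, of 24 windows centred between 4141 and 1846 nt from the end, held 1725 IP reads, and the run before it, of 11 windows, held 687. No single window dominated, since IP reads ran from 13 to 134 with a median of 46.5. The last 4 positions were listed and held 17, 51, 40 and 26 IP reads. One of them, centred 150 nt from the end with no input read, had the highest lower log2 enrichment of the gene, 5.08, while the highest IP count, 134, lay 3542.5 nt from the end. A stretch of 12 positions in the upstream part held no listed window.

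POMK had windows in 11 runs along its 3' UTR (chromosome 8, 43122878 to 43131180, plus strand), with 3063 IP and 257 input reads. The highest window, with 341 IP and 14 input reads and log2 enrichments of 5.24 and 5.49, was centred 148.5 nt from the end. A second group of 9 adjoining windows near the stop codon peaked at 187 IP reads, 7364.5 nt from the end, with log2 enrichments of 5.25 and 5.39. The median window held 48 IP reads. The RefSeq gene table for GRCh38.p14 ends POMK at 43123434, which is 7746 nt upstream of the last listed window. Of the 45 windows, 41 begin past that point, so most of them lie on a longer 3' UTR that the authors' annotation assigns to POMK. The next RefSeq gene downstream, HGSNAT, begins 9284 nt after the last listed window. For the other 5 genes the rebuilt end and the RefSeq end coincide.

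In SLIT2 the 3' UTR (chromosome 4, 20619010 to 20620561, plus strand) was listed from end to end. Its 16 windows held 61, 72, 31, 29, 19, 52, 102, 159, 142, 231, 24, 36, 36, 117, 133 and 205 IP reads from the stop codon on. Reads rose in the middle, fell, and rose again to the last window, where the log2 enrichments were 5.24 and 6.75. The 48 intron windows of SLIT2 were weaker than those of the 3' UTR, with a median lower log2 enrichment of 2.10 against 3.39 and a median of 27 against 66.5 IP reads. With both q-values at or under 0.05, 20 of the 48 intron windows and 12 of the 16 windows in the 3' UTR were kept. RefSeq places the whole gene from 20251905 to 20620561, and it also held 142 CPSF6 and 125 GRB2 windows.

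**Figure D2:**
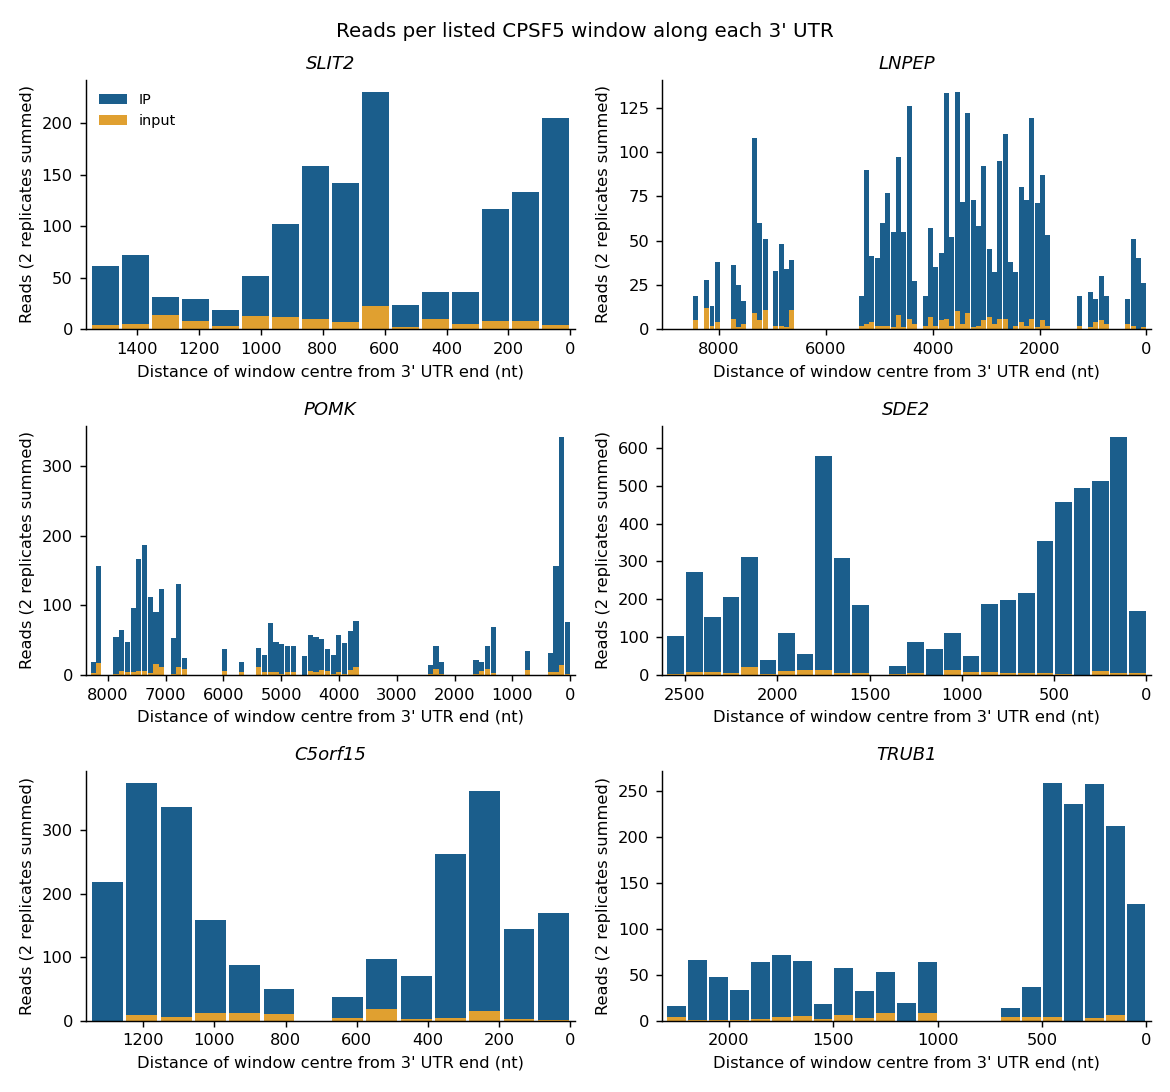
IP reads (blue) and input reads (yellow, drawn in front) of each listed CPSF5 window, both replicates summed, against the distance of the window centre from the 3' UTR end (nt, transcript running left to right; for POMK the end of the last listed window). Vertical scales differ between panels. Reads are highest at both ends in C5orf15, over the last 500 nt in TRUB1, in a pair of maxima of 579 and 628 in SDE2 and in the interior in LNPEP.

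**Figure D3:**
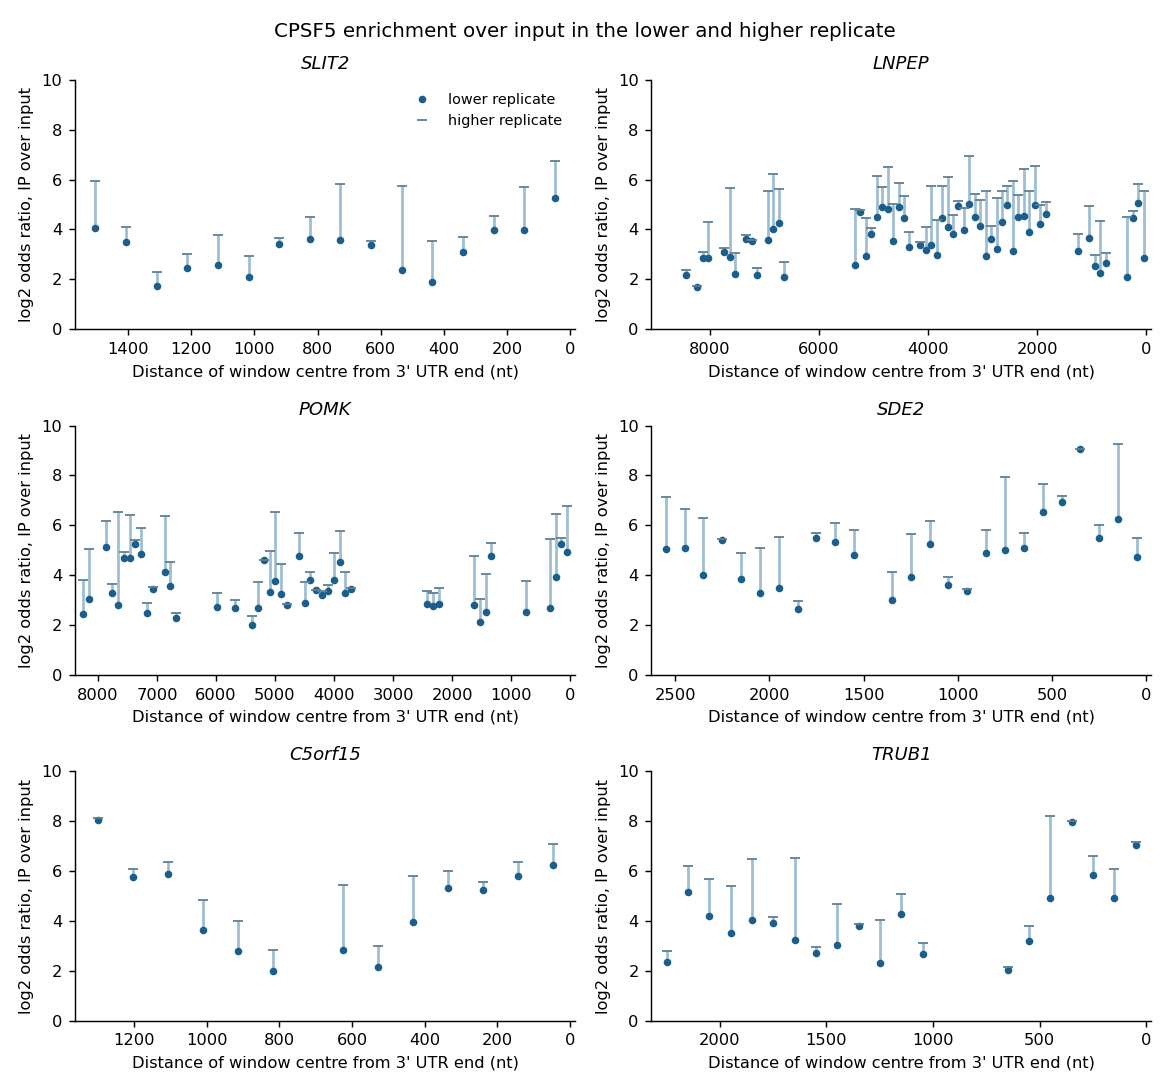
The authors' log2 odds ratio of IP over input for the same CPSF5 windows, with dots for the lower replicate, dashes for the higher and a line joining them, against distance from the 3' UTR end (nt). The highest dots are 9.04 in SDE2, 8.05 in C5orf15 and 7.96 in TRUB1, where both replicates nearly coincide. Some other windows differ by over 3 units between replicates, up to 3.73 in POMK.

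The spread between replicates was measured the same way in these genes and elsewhere. The median distance between the lower and the higher log2 enrichment was 0.87 over the 177 windows and 0.79 over the 30438 windows in 3' UTRs of other genes, and by gene it ran from 0.79 in TRUB1 to 0.91 in LNPEP. Neighbouring windows whose enrichments differ by less than this cannot be ordered. In SDE2 the strongest window of the 3' UTR stood at 9.04 and the next at 6.94, in C5orf15 at 8.05 and 6.26, and in TRUB1 at 7.96 and 7.06. Within each pair the replicate values of both windows did not overlap. The first of each pair had 0 input reads and the second 3, 1 and 0, so input at this depth does not order them. The widest distance was 3.73, in a POMK window with 2.81 and 6.54.

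Where a gene has several poly(A) sites, the proximal ones lie upstream of the 3' UTR end, and they were not located here. The place of the windows was set against the distal end of the 3' UTR alone. For POMK that end is itself the end of the last listed CPSF5 window, so its values near the end are partly fixed by that choice. Each of the other 5 genes had both windows listed that are centred within 200 nt of the end. In the 2090 other 3' UTRs, all of which held a CPSF5 window, both were listed in 35.0%. Because the members were picked as strongly or densely listed, this count is not independent of the choice. By reads, the last 5 positions held 38.4% of the IP reads of SDE2 at 19.2% of its positions, 19.8% in POMK at 5.95%, 42.6% in C5orf15 at 35.7%, 36.4% in SLIT2 at 31.3% and 4.19% in LNPEP at 5.56%. Among the 5 genes with an end set independently of the windows, TRUB1 was furthest above an even spread, and LNPEP was the one below it. The share of reads in the last 5 positions of other 3' UTRs is not given here, so these values have an even spread as their only reference. The strongest window by lower log2 enrichment was centred 48.5 nt from the end in SLIT2 and 150 nt in LNPEP, but by IP reads it lay 630.5 and 3542.5 nt away. In C5orf15 and TRUB1 neither measure placed it within 200 nt of the end.

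CPSF6, the partner subunit in cleavage factor Im, was all but missing from these 3' UTRs. It had 3 windows there, all in SLIT2 and all also listed for CPSF5, with lower log2 enrichments of 2.34, 2.78 and 2.94. LNPEP, POMK, SDE2, C5orf15 and TRUB1 had 0. A CPSF6 window in the 3' UTR was thus found in 1 of 6 genes, whereas 47.5% of the 6075 other genes with a CPSF5 window in the 3' UTR also had one for CPSF6, and 66.6% of the 446 other genes with at least 13 CPSF5 windows there. By windows, 1.69% of the 177 were shared with CPSF6, against 9.76% of the windows of other genes. With 6 genes this difference was not tested. Elsewhere in the same transcripts CPSF6 was listed, since all 6 genes had CPSF6 windows in coding sequence, between 4 in C5orf15 and 46 in SLIT2, as did 88.5% of the other genes.

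RNPS1, which joins the exon junction complex, had 2 windows in the SLIT2 3' UTR and 0 in the others (35.2% of other genes had one), while all 6 genes held RNPS1 coding windows (94% of other genes). EIF4B, a helicase cofactor in translation initiation, had 1 window in these 3' UTRs, in POMK with 9 IP reads (24.8% of other genes), and coding windows in 5 of 6 genes (85.6%). LNPEP had none there. GRB2 intron windows were found in 5 of 6 genes, all but SDE2, against 55.3% of the others. RBM10, RBM22 and LGALS3 had 0 windows in the 6 3' UTRs, where 5.22%, 2.77% and 1.2% of other genes had at least 1. CPSF5 itself was listed in coding sequence in SLIT2, POMK, SDE2 and C5orf15, 4 of 6 genes, against 26% of the others. Because the genes were picked by their CPSF5 windows, this count is not independent of the choice. In C5orf15 and SDE2 these coding windows numbered 7 and 9, and LNPEP and TRUB1 had none outside the 3' UTR.

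MBNL2, a muscleblind splicing regulator, had windows in the 3' UTRs of POMK, with 12, and of SDE2, with 3. The POMK count was 7 with both q-values at or under 0.05, and with at least 20 IP reads it was 4 and that of SDE2 1. Among other genes with a CPSF5 3' UTR window 37.5% had one for MBNL2, and 51.6% of those with at least 13 windows. The SDE2 windows, centred 2150, 1950 and 1550 nt from the end, had lower log2 enrichments of 3.91, 2.97 and 5.13 on 18, 22 and 17 IP reads and 18, 8 and 6 input reads, and all 3 were also CPSF5 windows. In POMK the MBNL2 windows were centred between 8155.5 and 1334.5 nt from the end, and 7 of them were shared with CPSF5. The one with most reads had 68 IP and 10 input reads, and the median held 13 IP reads.

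**Figure D4:**
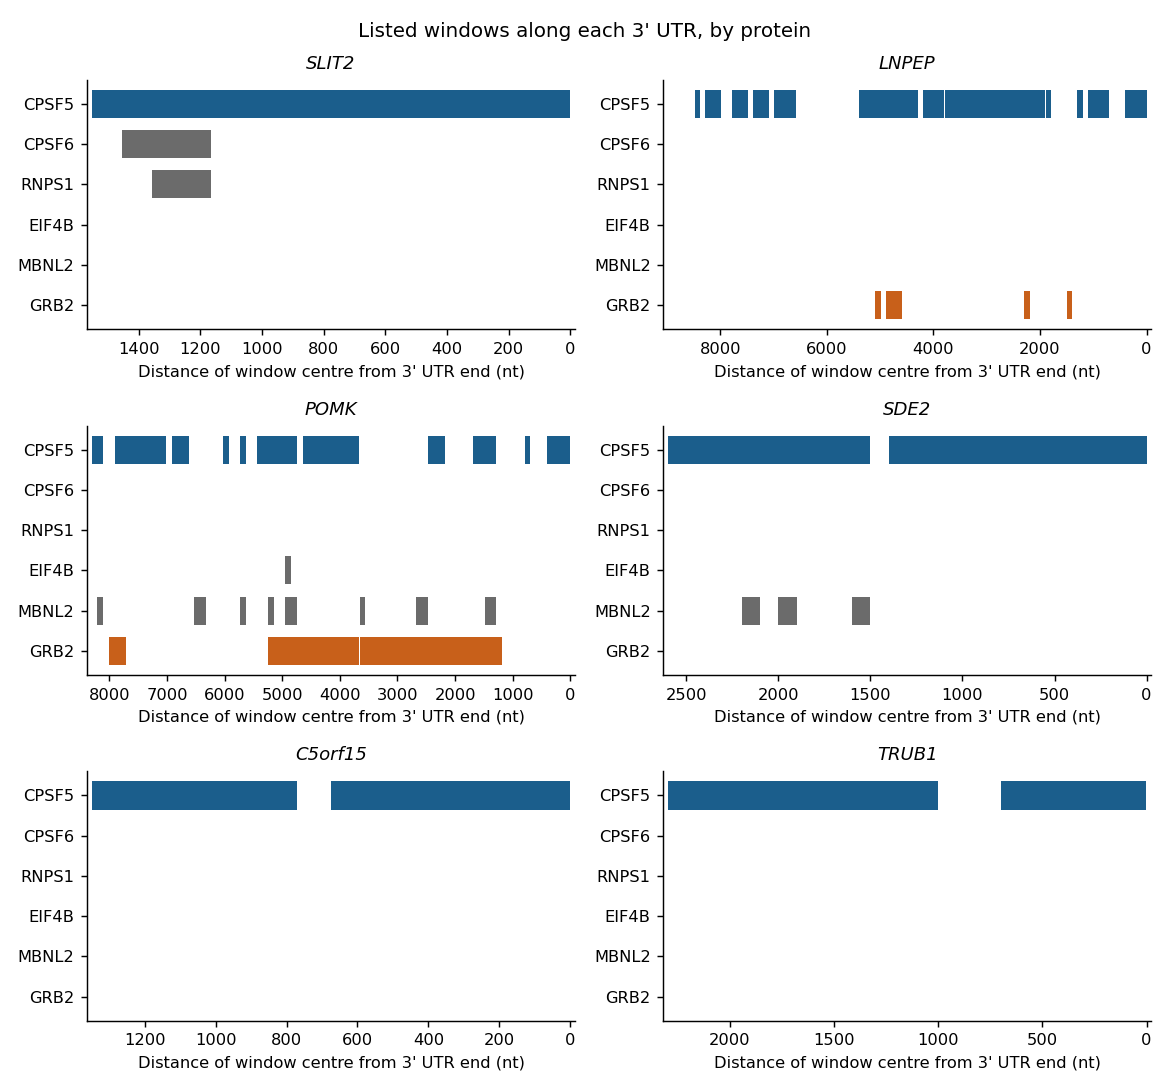
Listed windows along each of the 6 3' UTRs for CPSF5, CPSF6, RNPS1, EIF4B, MBNL2 and GRB2 (rows), against distance from the 3' UTR end (nt; for POMK from the end of the last listed window). RBM10, RBM22 and LGALS3 had no window there. C5orf15 and TRUB1 show CPSF5 alone, SDE2 adds 3 MBNL2 windows, and GRB2 covers a large part of the POMK 3' UTR.

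GRB2, a signalling adaptor with 1.42% of its listed windows in 3' UTRs, had 44 windows in the POMK 3' UTR, with 7077 IP and 241 input reads. CPSF5 had 3063 IP reads there, but its whole list held 2091353 IP reads against 13313477 in the GRB2 list. The read sums of both proteins are therefore not on a common scale. By number of GRB2 windows the 3' UTR ranked 10th of 440, and by its strongest window, at a lower log2 enrichment of 7.56 and a higher one of 7.77 with 196 IP reads and no input read, it ranked 1st. A GRB2 window in the 3' UTR occurred in 6.01% of other genes with CPSF5 windows there and in 16.1% of those with at least 13. Among the 6 genes POMK and LNPEP had them. The 6 GRB2 windows of LNPEP were weak, with 18 to 32 IP reads and a median lower log2 enrichment of 2.25.

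CPSF5 and GRB2 shared 24 POMK windows, 53.3% of the CPSF5 and 54.5% of the GRB2 windows. The longest stretch without a CPSF5 window inside the 3' UTR, 12 adjoining positions centred between 3608.5 and 2521 nt from the end, was chosen for that absence, and GRB2 was then read in it. All 12 positions were listed for GRB2, with 113 to 525 IP reads per window and lower log2 enrichments of 4.62 to 7.56. The 32 other GRB2 windows had a median of 94 IP reads and a median lower log2 enrichment of 3.29. High GRB2 values did not stop at the borders of the stretch. Position 62 from the stop codon, listed for both proteins, had a lower log2 enrichment of 5.05 on 201 IP reads, above the 4.62 and 4.72 at positions 48 and 58 inside it, and positions 47 and 61, also shared, held 310 and 242 IP reads. The last 4 positions of POMK, with 605 CPSF5 IP reads, held no GRB2 window, and of the 9 adjoining CPSF5 windows near the stop codon 2 were shared with GRB2. The 12 positions had a median GC content of 54.8%, against 37.1% in the remaining GRB2 windows and 35.4% in the CPSF5 windows of POMK. The authors list 41 of the 44 GRB2 windows, and 11 of the 12 MBNL2 windows, past the RefSeq end of the gene. The part of base composition and of transcript annotation in this arrangement was not tested.

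**Figure D5:**
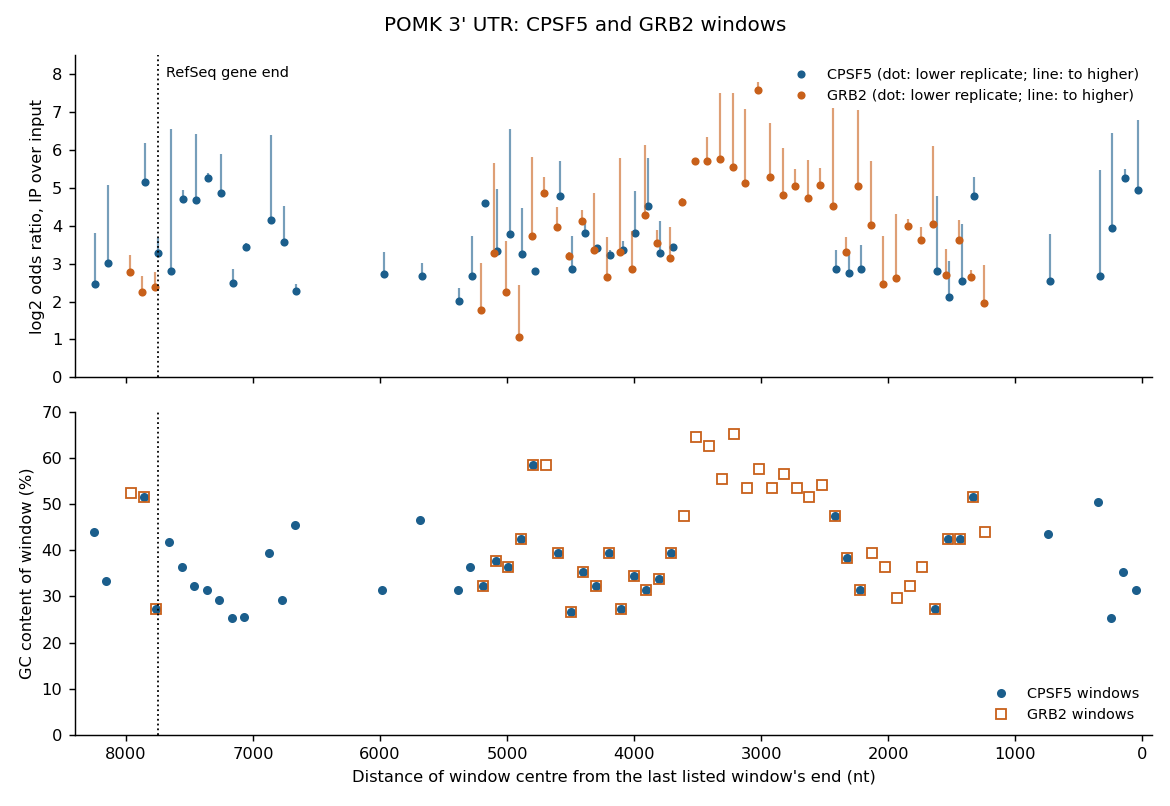
Top, the authors' log2 odds ratio of IP over input for CPSF5 (blue) and GRB2 (orange) windows in the POMK 3' UTR, with dots for the lower replicate and lines up to the higher. Bottom, GC content (%) of the same windows. The horizontal axis is the distance (nt) from the end of the last listed window, and the dotted line marks the RefSeq gene end, 7746 nt away. GRB2 reaches 7.56 inside the 12 positions chosen for having no CPSF5 window, and 5.05 at a nearby position that both proteins share.

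The CPSF5 windows of the 6 genes were AU-rich. Their median GC content was 33.3%, against 34.3% (quartiles 29.0 and 42.0%) for the windows of other genes, and by gene it ran from 28.9% in C5orf15 and 29.0% in TRUB1 to 35.4% in POMK. The strongest windows of SDE2 and TRUB1 had 18 and 20% GC. Across the windows of a gene, which share libraries and transcript and are not independent, Spearman's rho between GC content and the lower log2 enrichment was -0.68 over 25 windows in SDE2, -0.56 over 16 in SLIT2 and -0.48 over 20 in TRUB1. It was -0.21 over 45 in POMK, -0.03 over 58 in LNPEP and 0.10 over 13 in C5orf15, and -0.29 over all windows of other 3' UTRs. Whether the windows contain UGUA elements or poly(A) signals was not analysed here, since it needs genome sequence.

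By the number of 3' UTR windows in all 9 lists, the gene most like SLIT2 was NAB1, with 14 CPSF5, 2 CPSF6 and 2 RNPS1 windows (Euclidean distance over log2 of the counts plus 1, 0.45), followed by FAR1 (0.49). SDE2 was closest to PHF6, with 29 CPSF5 and 3 MBNL2 windows (0.21), and to CDK6 (0.42). POMK was closest to SFT2D2, with 35 CPSF5, 48 GRB2 and 12 MBNL2 windows (1.22), and then to CCNT1, with 13, 38 and 5 (2.29). LNPEP had no near match, at 1.73 from GPR180 and 2.02 from FAM234B. The counts of C5orf15 and TRUB1, CPSF5 alone, were met exactly by 21 and 3 other genes, AMMECR1 and ATP11B and CEP97 and SEL1L among them.

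Genes related in function to all members but C5orf15 were counted next. Of 57 related genes 40 appeared in any list, and 24 of these (60%) had a CPSF5 window in the 3' UTR, against 53.8% of the 11292 other genes in any list. Among 11 axon guidance genes of or near the SLIT and ROBO pathway, 3 appeared in any list and all 3 had windows, namely NTN1, which encodes the DCC ligand netrin-1, with 12, the receptor ROBO1 with 5 and SRGAP2, a GTPase-activating protein downstream of ROBO, with 2. Of 10 aminopeptidases related to LNPEP, 5 were in any list, and of these NPEPPS had 9 and RNPEP 5, and no other had any. Among 13 genes of dystroglycan O-mannosylation, which POMK serves, 10 were in any list and 5 had windows, most in DAG1, the dystroglycan gene itself, with 15, then B3GALNT2 with 8 and B4GAT1 with 7. All 11 splicing and replication factors linked to SDE2 were in a list and all but 1 had them, with 8 each in SF3B1 and CDC5L and 6 in TIMELESS, part of the replication fork protection complex. Of 12 pseudouridine synthase genes other than TRUB1, 11 were in any list and 4 had windows, DKC1 with 4 and PUS7 and PUS7L with 2 each among them. By the lower replicate TIPIN and B4GAT1 were the strongest of the 24. Their strongest windows had log2 enrichments of 7.0 and 6.82 in the lower replicate and of 7.31 and 7.13 in the higher.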

How the data were processed

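The 9 deposited tables hold, per window, IP and input read counts that the authors summed over replicates, a log2 odds ratio (IP against input) per the file headers, p-values and q-values per the file headers, and the GC fraction deposited by the authors (printed here as a percentage). The build is hg38, per the submitters' processing notes. The sources used here do not name the aligner, the caller or the annotation. Every listed window was called in 2 replicates, with q-values below 0.2 (largest 0.1999). Members were matched on the exact gene name. The members and lists were chosen with earlier results of these data known. Genes named beyond the members are those next to them in rank, the 2 nearest by Euclidean distance, up to 3 related genes per list, and a few chosen after their values were seen (TLE4, LBR, ETNK1, SLC7A1, PLS3, HNRNPA2B1, NUCKS1, HGSNAT, TIPIN).

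The end of a 3' UTR was rebuilt from window numbers and kept for comparison where it met the RefSeq gene end (GRCh38.p14) within 3 nt and at most 10 positions beyond a listed window, a step tested on simulated data. For POMK the end of the last listed window was used. No library depth is known, no value per library was used, and no test between groups was made. Sequence of the windows was not used here. Python 3.11.15, numpy 2.4.6, pandas 2.3.3, scipy 1.17.1 and matplotlib 3.10.9 were used. Alternatives were a q-value of at most 0.05, at least 20 IP reads, merged windows, other distances and read weights.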

Additional observations from a re-analysis of the deposited data

How the results depend on the processing

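The 177 CPSF5 windows in the 3' UTRs stayed within 1.5-fold of that number with a q-value of at most 0.05, with at least 20 IP reads and with a lower log2 enrichment of at least 3, and became 28 when adjoining windows were counted once. The last of these filters left 10 of 16 windows in SLIT2 and 27 of 45 in POMK. Windows shared with CPSF6 numbered 3 as reported and 9 within 100 nt. The 738 windows of the other 8 proteins fell to 424 with the stricter q-value. The 12 MBNL2 windows of POMK fell to 7 with that q-value and to 4 with at least 20 IP reads, and of the 6 GRB2 windows of LNPEP 1 was kept with the q-value, so these rest on few reads. The share of windows near the end, 6.78% within 200 nt, was 3.39% within 100 nt, 15.8% within 500 nt and 12.8% when weighted by reads. It includes POMK, whose end is that of its last listed window. Of 20964 CPSF5 windows placed in 3' UTRs of other genes, 18.4% lay within 200 nt, and 19.2% when weighted by reads. The 3' UTR lengths were not matched in this comparison. The place of the strongest window depended on the measure in all 6 genes. No paired analysis was possible because the tables hold sums over replicates, and leaving out a replicate was not possible for the same reason.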

Other observations

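Outside the 3' UTRs the same transcripts carried windows of the other proteins. EIF4B, a cofactor of translation initiation, was listed at their 5' ends. In SLIT2 it had 20 windows in the 5' UTR with 22452 IP and 707 input reads and lower log2 enrichments of up to 5.38, and in TRUB1 and C5orf15 the first window of the 5' UTR reached 5.58 and 5.36. The SLIT2 5' UTR also held 16 CPSF6, 11 RNPS1, 8 RBM22, 6 MBNL2 and 1 CPSF5 windows. The share of other genes with an EIF4B window at the 5' end is not given here. RBM10, a splicing regulator, had 28 windows in introns and splice-site flanks of SLIT2, the strongest at 5.13 on 51 IP and 0 input reads, and reached 4.37 in LNPEP. GRB2 had 36 intron windows in C5orf15, 23 in TRUB1 and 125 in SLIT2, where the strongest held 364 IP reads at a lower log2 enrichment of 5.53. The strongest RNPS1 window of SDE2 lay in coding sequence, at 4.79 on 88 IP and 2 input reads.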
